A study of Homo sapiens with 12 samples.

Results

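The genes around MTCH2 on the short arm of human chromosome 11, in bands 11p11.2 to p12, were followed across 3 groups of U251-APP cells. They are 38 of the 11178 genes in the deposited expression table, and were taken by name as the listed genes that lie between API5 and PTPRJ (chr11:43311963-48170841, GRCh38, GENCODE release 29). In the table the nearest gene on one side of them, C11orf74, ends at 36659290, and the nearest on the other side starts at 56690465. Within the stretch the table holds 1 further entry, the processed pseudogene AC024293.1. All 38 genes passed the filter on low values. The stretch had been proposed for study because earlier results of these data showed it lower in CTCF-A KO and level or slightly higher in CTCF-B KO, so the directions below are a description and not independent support for that pattern.

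U251 is an established human glioblastoma line derived from astrocytic tumour tissue, and U251-APP cells stably express mutant amyloid precursor protein, APP (K670N/M671L), a transgene carried by every group compared here. The groups are CTCF-A KO, in which a site called CTCF-A that binds the chromatin protein CTCF was deleted, CTCF-B KO, in which the site CTCF-B was deleted, and WT cells, with 4 libraries each. Cas9 was directed by a pair of guides flanking the site, and single-cell clones were picked, with the deletion checked by sequencing. The labels list CRISPR/Cas9 editing as the treatment of the WT samples too, give no position for either site, and name MTCH2 in the titles of the CTCF-B KO samples. They leave unsaid whether the libraries of a group come from different clones or cultures, so each p-value here is measured against a spread that may be technical, and a property of 1 clone and an effect of the deletion cannot be told apart.

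CTCF binds DNA through its zinc fingers and, with cohesin, anchors chromatin loops that can bring enhancers and promoters together or keep them apart. Deleting a CTCF site can therefore alter genes other than the nearest. MTCH2, after which the stretch is called here, encodes a protein of the outer mitochondrial membrane that receives the death protein tBID and inserts helical proteins into the membrane. The part of the stretch around CELF1, PSMC3, MTCH2 and NUP160 is a region associated with Alzheimer's disease in genome-wide studies. The other genes have little function in common and encode enzymes of lipid metabolism, DNA repair proteins, nuclear pore and RNA-binding proteins, receptors and parts of the cytoskeleton.

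Because CTCF sites are the subject of the study, promoter windows were searched on both strands for a 12-base core of the CTCF motif, read as CCA, any 2 bases, AG, any 2 bases and GGC. RefSeq windows (GRCh38.p14) from 250 bases before to 50 after a transcript start were matched for 31 of the 38 genes, as 59 windows. The core was present in windows of 3 of these 31 genes (9.68%), EXT2, SLC35C1 and ACP2, against 2.97% of all 27305 genes with a window and 3.68% of the 8417 genes tested that have one. The genes of the stretch have more windows each, and by window the shares were 8.47% of 59 and 2.41% of 35116. The windows of the stretch with a match include an overlapping pair of EXT2 that hold the same match, which is counted in each. Shown are the promoters of MTCH2, of TTC17, the gene that differed most between the knockouts, and of EXT2 and SLC35C1, with the core match in the window shown in capitals.
MTCH2: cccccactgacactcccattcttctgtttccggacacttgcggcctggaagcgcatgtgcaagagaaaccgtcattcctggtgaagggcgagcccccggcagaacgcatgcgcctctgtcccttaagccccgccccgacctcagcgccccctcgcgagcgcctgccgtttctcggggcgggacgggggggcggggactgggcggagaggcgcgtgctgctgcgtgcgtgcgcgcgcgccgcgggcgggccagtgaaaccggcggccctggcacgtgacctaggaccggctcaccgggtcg
TTC17: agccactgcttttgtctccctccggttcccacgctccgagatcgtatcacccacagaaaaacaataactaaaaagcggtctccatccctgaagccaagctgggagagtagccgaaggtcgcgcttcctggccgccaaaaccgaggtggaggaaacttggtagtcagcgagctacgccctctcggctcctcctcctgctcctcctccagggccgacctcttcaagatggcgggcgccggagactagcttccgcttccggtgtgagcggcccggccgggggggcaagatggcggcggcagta
EXT2: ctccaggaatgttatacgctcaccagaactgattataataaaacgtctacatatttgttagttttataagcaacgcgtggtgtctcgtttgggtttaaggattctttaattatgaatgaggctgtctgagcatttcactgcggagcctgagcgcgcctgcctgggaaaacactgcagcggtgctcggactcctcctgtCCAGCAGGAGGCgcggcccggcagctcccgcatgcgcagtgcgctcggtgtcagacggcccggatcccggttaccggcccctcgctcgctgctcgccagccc
SLC35C1: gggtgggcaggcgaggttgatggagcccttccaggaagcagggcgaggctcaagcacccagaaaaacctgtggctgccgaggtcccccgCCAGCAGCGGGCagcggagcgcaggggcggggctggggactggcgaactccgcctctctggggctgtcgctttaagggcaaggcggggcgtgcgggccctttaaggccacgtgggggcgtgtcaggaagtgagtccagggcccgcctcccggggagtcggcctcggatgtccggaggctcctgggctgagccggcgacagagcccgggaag
The MTCH2 window is chr11:47642510-47642809 on the minus strand, and the plus-strand windows are chr11:43358670-43358969 for TTC17, chr11:44095428-44095727 for EXT2 and chr11:45804899-45805198 for SLC35C1. The match shown begins 52 bases before the start in EXT2 and 161 before it in SLC35C1. EXT2 has another match, on the minus strand, in a pair of overlapping windows of later starts that are not printed. In these windows of MTCH2 and TTC17 the letters do not occur. A match is only a run of letters, and no binding was measured.

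The values are normalized expression levels on a log2 scale, in which a difference of 1 is a doubling. They were compared with limma across all 11128 genes that passed the filter, and a gene was called where the Benjamini-Hochberg adjusted p was under 0.05. Differences are given with the standard error (SE) of that model, from 4 libraries a group. Of 10 astrocyte and glioma markers 7 were in the table, GFAP, VIM, SOX2, SOX9, NES, FABP7 and SLC1A3, and the log2 of their summed level was 16.397 to 16.630 in CTCF-A KO, 16.168 to 16.237 in CTCF-B KO and 17.004 to 17.231 in WT. GFAP, the intermediate filament of astrocytes, averaged 12.57 ± 0.08 in CTCF-A KO, 12.83 ± 0.05 in CTCF-B KO and 15.68 ± 0.16 in WT (SD, n = 4 each). Of other markers in the list, VIM averaged 15.94, 15.52 and 15.92, NES 13.60, 13.36 and 13.72 and SOX2 12.56, 12.36 and 12.87 in CTCF-A KO, CTCF-B KO and WT, smaller shifts than that of GFAP. SOX9, FABP7 and SLC1A3 were examined only within the sum, in which the genes of highest level weigh most. Of other cell types, the table listed 0 of 6 microglial and 0 of 5 oligodendrocyte markers. The sum of 2 of 6 neuron markers, MAP2 and SNAP25, was 9.37 to 9.97 in CTCF-A KO, 9.27 to 9.32 in CTCF-B KO and 9.46 to 9.55 in WT. KDR, 1 of 4 endothelial markers, was at 8.97 to 9.30, 9.40 to 9.52 and 10.23 to 10.32 in these groups, and KRT18, 1 of 4 epithelial markers, at 8.53 to 8.82, 8.49 to 8.60 and 8.86 to 8.98. The part of the marker shift in the results below was not tested, and in bulk RNA fewer cells of a type and less RNA per cell cannot be told apart. Libraries of a group differed from each other by a median of 0.08 to 0.29 in CTCF-A KO, 0.06 to 0.08 in CTCF-B KO and 0.05 to 0.08 in WT.

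Across the stretch, CTCF-A KO cells held less RNA of most genes than WT cells. Of the 38 genes, 27 were lower, 0 were higher and 11 were not called, where 31.1% of all genes tested were called lower and 31.8% higher. At an unadjusted p under 0.05 in the same limma fit, 30 were lower and 0 higher, and the share of all genes at that level was not counted. The median difference of the 38 genes was -0.28, against 0.00 over all genes tested, and the values ran from -0.96 for CKAP5 to 0.13 for CRY2. In 23 genes all 4 CTCF-A KO libraries lay below all 4 WT libraries, which was so for 22.1% of all genes. When libraries were centred on their medians or quantile normalized, CRY2, a repressor of the circadian clock, and LRP4 were called higher. Over all genes tested 38.7% and 33.3% were called higher in these settings. Without CTCF-A KO replicate 4, CRY2 was called higher at 0.19 (adjusted p = 0.0219, limma), where 37.9% of all genes were. Centring left 19 genes called lower, where 24.0% of all genes were, and ended the calls of ALKBH3, ARFGAP2, ARHGAP1, DGKZ, EXT2, MADD, MDK and SLC39A13 (-0.20 to -0.08, adjusted p from 0.089 to 0.328). Centring shifts every gene of a library alike, and it moved the median difference over all genes tested from 0.00 to 0.09. The lost and gained calls came with that shift. Some genes gained a call when a library was left out. Without CTCF-A KO replicate 1, C11orf49 was at -0.13 (adjusted p = 0.0485, limma), and PEX16, PSMC3, NDUFS3 and KBTBD4 were called lower too, the last pair also without replicate 3. Over all genes tested 28.6% were called lower without replicate 1 and 27.3% without replicate 3.

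**Figure D1:**
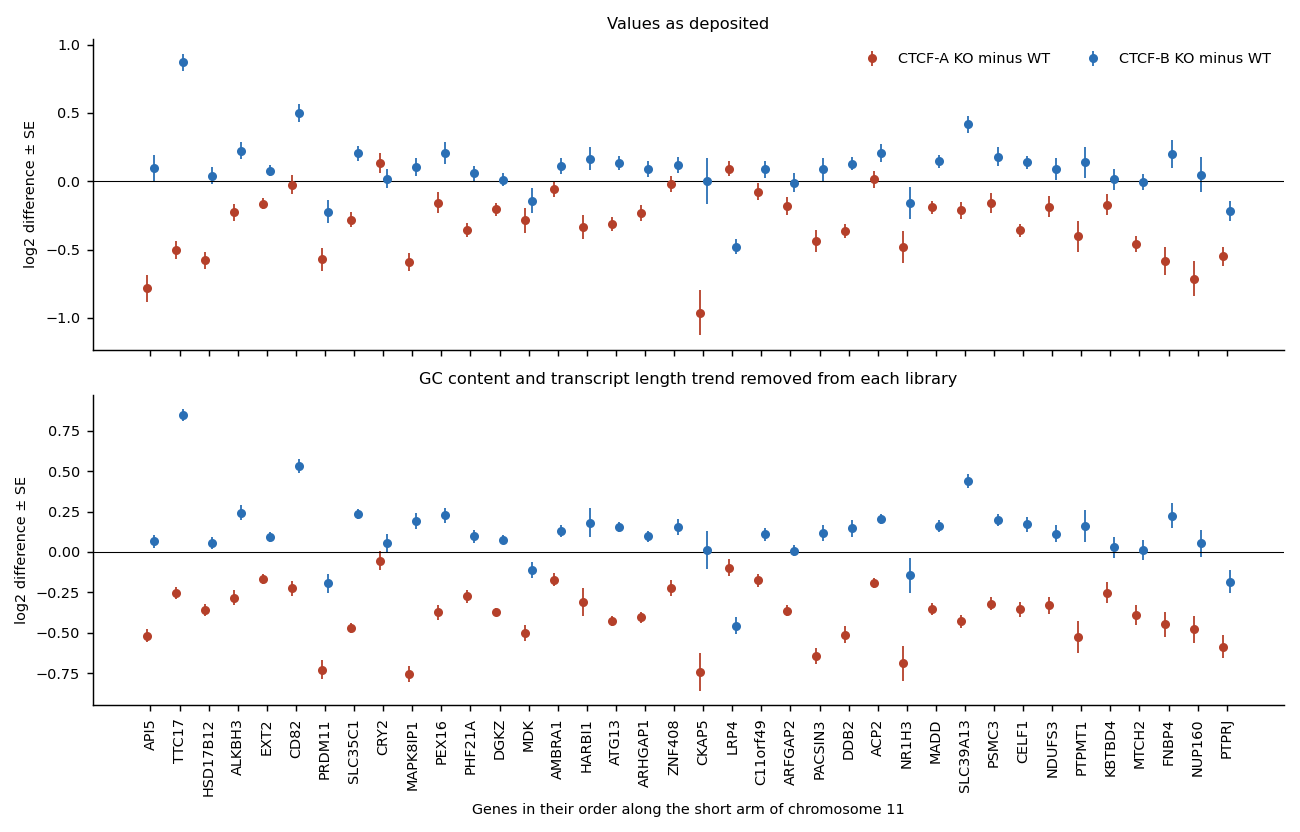
The log2 difference from WT of each of the 38 genes, in chromosome order from API5 to PTPRJ, in CTCF-A KO (red) and CTCF-B KO (blue), as deposited (upper panel) and after removal of a trend with GC content and transcript length (lower panel). Points are differences of group means and bars are SE, with 4 libraries a group. The red points lie mostly under 0 along the whole stretch, with CKAP5 lowest at -0.96 in the upper panel, and the blue points stay near 0 apart from genes such as TTC17 at 0.87.

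MTCH2 itself (ENSG00000109919, chr11:47617315-47642623, minus strand) was at 10.997, 10.926, 10.942 and 10.689 in CTCF-A KO libraries, 11.389, 11.338, 11.327 and 11.316 in those of CTCF-B KO, and 11.368, 11.317, 11.324 and 11.386 in WT. Every CTCF-A KO library was below every other library, whereas the CTCF-B KO and WT libraries overlapped. MTCH2 fell to 0.727 of WT in CTCF-A KO (-0.46 ± 0.06, SE, adjusted p = 2.39e-05, limma). In CTCF-B KO the difference was -0.01, with a 95% interval of -0.13 to 0.12 (adjusted p = 0.945, limma).

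Among genes of the mitochondrion, the peroxisome and lipid metabolism, 5 of 7 fell in CTCF-A KO, where 31.1% of all genes tested were called lower. In CTCF-B KO 0 were called, where 18.9% of all genes were called higher and 20.6% lower. There 1 had an unadjusted p under 0.05 in limma, a level at which all genes were not counted. The groups by function were put together by hand with results known, and order the description only. HSD17B12 (chr11:43680558-43856617, plus strand), a reductase of fatty acid elongation, was at 9.30, 9.57, 9.38 and 9.59 in CTCF-A KO libraries, 10.09, 10.08, 10.01 and 10.14 in those of CTCF-B KO, and 10.03, 10.02, 10.05 and 10.06 in WT. Its CTCF-A KO libraries were clear of the other 8, and it fell by 0.58 ± 0.06 (adjusted p = 6.16e-06, limma). NR1H3, the oxysterol receptor LXR alpha, fell by 0.48 ± 0.12, PTPMT1, a phosphatase of cardiolipin synthesis, by 0.40 ± 0.12, and DGKZ, a diacylglycerol kinase, by 0.21 ± 0.05. NDUFS3, a core subunit of respiratory complex I, stood at -0.18 ± 0.08 and PEX16, needed for peroxisome formation, at -0.16 ± 0.08, and neither was called (adjusted p = 0.0552 and 0.103, limma).

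Of 10 genes of the nucleus, DNA repair, transcription and RNA, 8 fell in CTCF-A KO, while 2 rose and 1 fell in CTCF-B KO. Over all genes tested 31.1% were lower in CTCF-A KO, and 18.9% were higher and 20.6% lower in CTCF-B KO, so the counts for CTCF-B KO were near or below the background. API5 (chr11:43311963-43344529, plus strand), a nuclear inhibitor of apoptosis, was at 10.09, 10.48, 10.39 and 10.73 in CTCF-A KO libraries, 11.30, 11.25, 11.32 and 11.33 in those of CTCF-B KO, and 11.14, 11.15, 11.30 and 11.24 in WT. Its CTCF-A KO libraries lay below all others, replicate 1 lowest and replicate 4 highest among them, and CTCF-B KO overlapped WT. API5 fell to 0.581 of WT in CTCF-A KO (-0.78 ± 0.10, adjusted p = 2.61e-05, limma) and differed by 0.09 in CTCF-B KO (95% interval -0.12 to 0.31).

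NUP160 (chr11:47778087-47848555, minus strand), a scaffold protein of the nuclear pore, was at 9.07, 9.25, 9.32 and 9.89 in CTCF-A KO libraries, 10.10, 10.11, 10.17 and 10.18 in those of CTCF-B KO, and 9.99, 10.11, 10.17 and 10.10 in WT. It too was lower in CTCF-A KO without overlap, with replicate 4 closest to WT, and fell to 0.611 of WT (-0.71 ± 0.13, adjusted p = 0.000443, limma). PRDM11 (chr11:45095806-45235110, plus strand), which has a PR domain as many chromatin regulators do, was at 7.41, 7.26, 7.21 and 7.04 in CTCF-A KO libraries, 7.44, 7.67, 7.64 and 7.57 in those of CTCF-B KO, and 7.93, 7.77, 7.73 and 7.78 in WT. Both knockouts lay below WT without overlap, CTCF-A KO further than CTCF-B KO. PRDM11 fell by 0.57 ± 0.08 in CTCF-A KO (adjusted p = 7.47e-05, limma) and by 0.22 ± 0.08 in CTCF-B KO (adjusted p = 0.0474, limma). The second call was lost without any of 10 of the 12 libraries in turn, with differences of -0.25 to -0.18 and adjusted p from 0.0509 to 0.139.

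DDB2, which recognises DNA damage from ultraviolet light, fell by 0.36 ± 0.05 in CTCF-A KO, and so did PHF21A, a reader of unmethylated histone H3 in the LSD1 complex, and the RNA-binding protein CELF1, each by 0.36 ± 0.05. ALKBH3, a repair enzyme for alkylated DNA and RNA, fell by 0.23 ± 0.06 and HARBI1, derived from a transposase, by 0.33 ± 0.08. CRY2 at 0.13 ± 0.07 and the zinc-finger protein ZNF408 at -0.02 ± 0.06 were not called. In CTCF-B KO, ALKBH3 rose by 0.22 ± 0.06 and CELF1 by 0.14 ± 0.05. The rise of CELF1 was lost when any of 8 libraries was left out, with differences of 0.11 to 0.15 and adjusted p from 0.0506 to 0.118.

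The cytoskeletal, vesicle and scaffold genes had 8 of 9 members lower in CTCF-A KO, where 31.1% of all genes tested were. In CTCF-B KO 2 were higher (22.2%) and 0 lower, where 18.9% and 20.6% of all genes were. CKAP5 (chr11:46743048-46846308, minus strand), which polymerises microtubules at their plus ends, was at 10.89, 11.33, 11.30 and 11.99 in CTCF-A KO libraries, 12.32, 12.24, 12.35 and 12.47 in those of CTCF-B KO, and 12.21, 12.33, 12.48 and 12.33 in WT. CTCF-A KO was lower without overlap but its libraries spanned 1.09, replicate 4 being far closer to WT than the other 3. CKAP5 fell to 0.513 of WT (-0.96 ± 0.17, adjusted p = 0.000297, limma), and its difference in CTCF-B KO was 0.00 with a 95% interval of -0.36 to 0.36.

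FNBP4 (chr11:47716517-47767443, minus strand), a formin-binding protein, was at 8.96, 9.11, 9.19 and 9.60 in CTCF-A KO libraries, 9.90, 10.01, 10.03 and 10.05 in those of CTCF-B KO, and 9.76, 9.77, 9.88 and 9.78 in WT. The groups did not overlap, CTCF-A KO lying below WT and CTCF-B KO above it. FNBP4 fell by 0.58 ± 0.10 in CTCF-A KO (adjusted p = 0.000358, limma), and its 0.20 ± 0.10 in CTCF-B KO was not called (adjusted p = 0.146, limma). MAPK8IP1 (chr11:45885651-45906465, plus strand), the JIP1 scaffold of the JNK pathway and an adaptor of kinesin transport, was at 8.27, 8.31, 8.21 and 8.10 in CTCF-A KO libraries, 8.95, 8.93, 8.93 and 8.87 in those of CTCF-B KO, and 8.92, 8.91, 8.69 and 8.74 in WT. Here CTCF-A KO was again separate, while replicate 4 was the lowest of its libraries, and the gene fell by 0.59 ± 0.07 (adjusted p = 7.66e-06, limma).

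TTC17 (chr11:43358932-43494933, plus strand), which takes part in actin organisation and cilium formation, moved in opposite directions in the knockouts. Its level was 10.24, 10.42, 10.52 and 10.62 in CTCF-A KO libraries, 11.79, 11.82, 11.83 and 11.85 in those of CTCF-B KO, and 10.91, 10.95, 10.97 and 10.98 in WT. No library of any group overlapped another group, and CTCF-B KO stood well above WT with CTCF-A KO below. TTC17 fell by 0.50 ± 0.06 in CTCF-A KO (adjusted p = 2.63e-05, limma) and rose 1.83-fold in CTCF-B KO (0.87 ± 0.06, adjusted p = 2.85e-07, limma). Among the other genes of this group, PACSIN3, a membrane-bending F-BAR protein, fell by 0.44 ± 0.08 in CTCF-A KO, ARHGAP1 by 0.23 ± 0.06 and MADD, an exchange factor for Rab3, by 0.19 ± 0.05. ARFGAP2, of the COPI coat, fell by 0.18 ± 0.07, a call that was lost when WT replicate 1, 2 or 4 or CTCF-A KO replicate 2 was left out (-0.18 to -0.17, adjusted p from 0.064 to 0.0805). C11orf49 stood at -0.08 ± 0.06 and was not called. MADD rose by 0.15 ± 0.05 in CTCF-B KO, and this call was lost when any of 5 libraries was left out, with differences of 0.12 to 0.15 and adjusted p from 0.0523 to 0.0876.

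**Figure D2:**
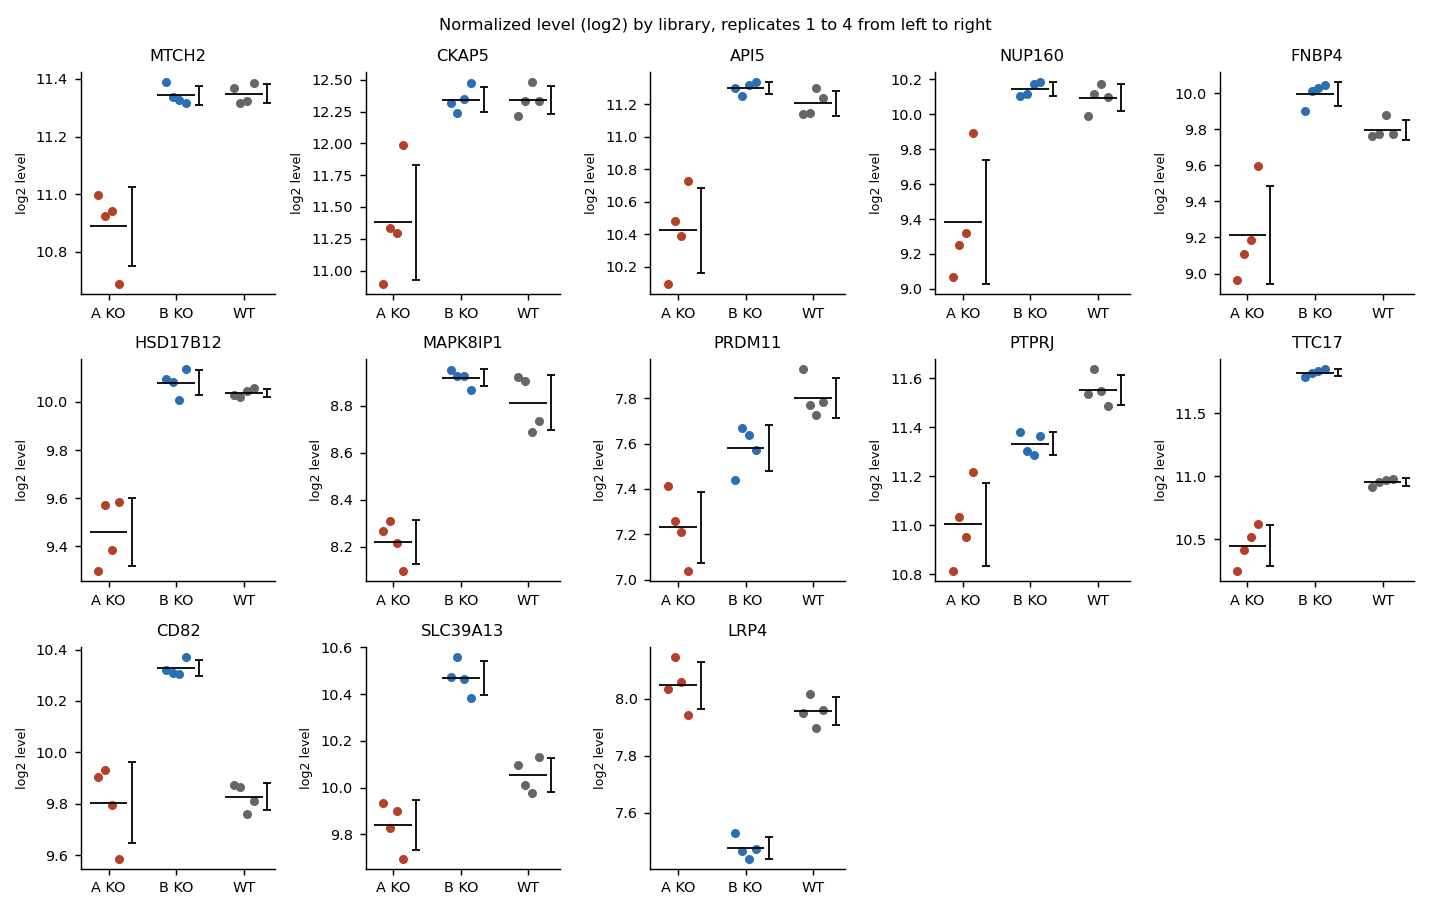
Normalized log2 level of 13 genes of the stretch in each library, with replicates 1 to 4 from left to right within CTCF-A KO (A KO, red), CTCF-B KO (B KO, blue) and WT (grey), the group mean as a line and the SD as a bar (n = 4). Each panel has its own axis. In CKAP5, API5, NUP160 and FNBP4 replicate 4 is the highest CTCF-A KO point, and in MTCH2, MAPK8IP1, PRDM11 and CD82 it is the lowest.

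Genes for receptors, matrix and transport were called in both directions. In CTCF-A KO 5 of 7 fell, where 31.1% of all genes tested were called lower. In CTCF-B KO 3 rose (42.9%) and 2 fell (28.6%), where 18.9% of all genes were called higher and 20.6% lower. PTPRJ (chr11:47980558-48170841, plus strand), a receptor tyrosine phosphatase, was at 10.81, 11.03, 10.95 and 11.22 in CTCF-A KO libraries, 11.38, 11.30, 11.29 and 11.37 in those of CTCF-B KO, and 11.53, 11.64, 11.55 and 11.49 in WT. WT was above both knockouts with no overlap, and CTCF-A KO was below CTCF-B KO. PTPRJ fell by 0.55 ± 0.07 in CTCF-A KO (adjusted p = 2.88e-05, limma) and by 0.22 ± 0.07 in CTCF-B KO (adjusted p = 0.0257, limma). The second call was lost without WT replicate 2 or 3 or CTCF-B KO replicate 2 or 3 (-0.22 to -0.19, adjusted p from 0.0511 to 0.0782).

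CD82 (chr11:44564427-44620363, plus strand), a tetraspanin of the cell surface, was at 9.90, 9.93, 9.80 and 9.59 in CTCF-A KO libraries, 10.32, 10.31, 10.30 and 10.37 in those of CTCF-B KO, and 9.87, 9.87, 9.76 and 9.81 in WT. CTCF-B KO was above all other libraries, while CTCF-A KO and WT overlapped. CD82 rose 1.41-fold in CTCF-B KO (0.50 ± 0.07, adjusted p = 6.83e-05, limma), and in CTCF-A KO its difference was -0.02 with a 95% interval of -0.17 to 0.12. SLC39A13 (chr11:47407132-47416501, plus strand), the zinc transporter ZIP13, was at 9.94, 9.83, 9.90 and 9.70 in CTCF-A KO libraries, 10.47, 10.56, 10.46 and 10.38 in those of CTCF-B KO, and 10.10, 10.01, 9.98 and 10.13 in WT. As with TTC17 the groups did not overlap, in the order CTCF-A KO, WT, CTCF-B KO. SLC39A13 fell by 0.21 ± 0.06 in CTCF-A KO (adjusted p = 0.00808, limma) and rose 1.33-fold in CTCF-B KO (0.42 ± 0.06, adjusted p = 0.000136, limma).

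LRP4 (chr11:46856868-46918642, minus strand), the receptor for agrin at the neuromuscular synapse, went the other way. It was at 8.04, 8.15, 8.06 and 7.94 in CTCF-A KO libraries, 7.53, 7.47, 7.44 and 7.47 in those of CTCF-B KO, and 7.95, 8.02, 7.90 and 7.96 in WT. CTCF-B KO lay below the other libraries, and CTCF-A KO overlapped WT. LRP4 fell to 0.717 of WT in CTCF-B KO (-0.48 ± 0.06, adjusted p = 1.9e-05, limma), and its difference in CTCF-A KO was 0.09 (95% interval -0.03 to 0.21, adjusted p = 0.166, limma). Of the rest, SLC35C1, which carries GDP-fucose into the Golgi, fell by 0.28 ± 0.06 in CTCF-A KO and rose by 0.20 ± 0.06 in CTCF-B KO. EXT2, a polymerase of heparan sulfate, fell by 0.16 ± 0.04 in CTCF-A KO (-0.08 and not called with libraries centred, adjusted p = 0.208, limma) and the growth factor midkine, MDK, by 0.28 ± 0.09. The fall of MDK was lost without CTCF-A KO replicate 2 (-0.25, adjusted p = 0.0512, limma).

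The autophagy, lysosome and protein turnover genes had 1 of 5 lower in CTCF-A KO and 1 of 5 higher in CTCF-B KO, shares near those of all genes (31.1% and 18.9%). ATG13, of the kinase complex that starts autophagy, fell by 0.31 ± 0.05 in CTCF-A KO. AMBRA1, another autophagy regulator, stood at -0.06 ± 0.06, the proteasome ATPase PSMC3 at -0.16 ± 0.07, KBTBD4, an adaptor of a ubiquitin ligase, at -0.17 ± 0.08 and ACP2, a lysosomal acid phosphatase, at 0.01 ± 0.06. ACP2 rose by 0.21 ± 0.06 in CTCF-B KO, a call that was lost without WT replicate 3 or 4 or CTCF-B KO replicate 2 (adjusted p from 0.0511 to 0.055). With the trend described below removed, all 5 genes were called lower in CTCF-A KO, where 29.4% of all genes were. ACP2 was then at -0.19.

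In CTCF-B KO the shift of the stretch from WT was small and mostly upward. The difference was above 0 in 31 of the 38 genes and below 0 in 7, where 5591 of all 11128 genes were above 0. Of the 38 genes 8 rose, where 18.9% of all genes tested were called higher, and 3 fell, where 20.6% were called lower. The median difference was 0.09, against 0.00 over all genes. In 17 genes all CTCF-B KO libraries lay above all WT libraries (26.2% of all genes did so) and in 3 all lay below (27.3%). The number of calls rested on single libraries. It was 6 without WT replicate 3 or CTCF-B KO replicate 2, 7 without WT replicate 4 or CTCF-B KO replicate 3, and 17 without CTCF-A KO replicate 4, whose spread enters the shared variance. Over all genes tested, the share called was 34.3% and 33.1% in the settings with 6, and 33.5% and 33.0% in those with 7. It was 52.3% in that with 17, so the stretch and the whole table both had more calls there. The 17 were 14 higher and 3 lower, where 25.5% of all genes were higher and 26.8% lower. A fit of CTCF-B KO and WT alone called 18 higher and 4 lower, where 29.2% of all genes were called higher and 30.1% lower. The split was 13 higher and 1 lower after quantile normalization (22.4% and 18.4% of all genes), and 20 higher and 3 lower after removal of the trend, where 27.6% and 22.9% of all genes were called.

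Both knockouts were set against the same WT libraries, so their differences are not independent. Side by side, 6 genes were called lower in CTCF-A KO and higher in CTCF-B KO, namely TTC17, ALKBH3, SLC35C1, MADD, SLC39A13 and CELF1. Of these, ALKBH3, MADD and SLC39A13 lost the CTCF-A KO call when libraries were centred on their medians (-0.15, -0.11 and -0.13, adjusted p = 0.089, 0.155 and 0.137, limma), and MADD lost that in CTCF-B KO too (adjusted p = 0.0617, limma). ALKBH3 also lost the first call after quantile normalization (-0.13, adjusted p = 0.144, limma). PRDM11 and PTPRJ were lower in both, and 19 genes were lower in CTCF-A KO and not called in CTCF-B KO. CD82 and ACP2 were called in CTCF-B KO as higher and LRP4 as lower, without a call in CTCF-A KO. The remaining 8, CRY2, PEX16, AMBRA1, ZNF408, C11orf49, PSMC3, NDUFS3 and KBTBD4, were called in neither. As given above, the CTCF-B KO calls of CELF1, MADD, PRDM11, PTPRJ and ACP2 were lost when certain single libraries were left out.

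The knockouts were also compared directly. CTCF-A KO was lower than CTCF-B KO in 33 of the 38 genes, where 32.6% of all genes tested were, and higher in 1, LRP4, where 33.4% were. The median difference was -0.39, against -0.01 over all genes. In 29 genes every CTCF-A KO library was below every CTCF-B KO library (25.3% of all genes). The largest difference was that of TTC17, whose level in CTCF-A KO was 0.386 of that in CTCF-B KO (-1.37 ± 0.06, adjusted p = 2.2e-09, limma). CKAP5 differed by -0.97 ± 0.17 and API5 by -0.88 ± 0.10 (adjusted p = 0.000218 and 6.72e-06, limma). LRP4 was 1.48-fold higher in CTCF-A KO than in CTCF-B KO (0.57 ± 0.06, adjusted p = 1.6e-06, limma). CRY2, MDK, ZNF408 and KBTBD4 were not called. With libraries centred on their medians 26 genes were lower, where 26.9% of all genes were. The calls of ACP2, AMBRA1, ARFGAP2, C11orf49, DGKZ, NDUFS3 and NR1H3 were then lost. Those of ARFGAP2, C11orf49, NR1H3 and AMBRA1 were also lost when any of 10, 6, 5 and 2 libraries, in that order, was left out. MDK, ZNF408 and KBTBD4 gained a lower call, and CRY2 a higher one, without certain single libraries.

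**Figure D3:**
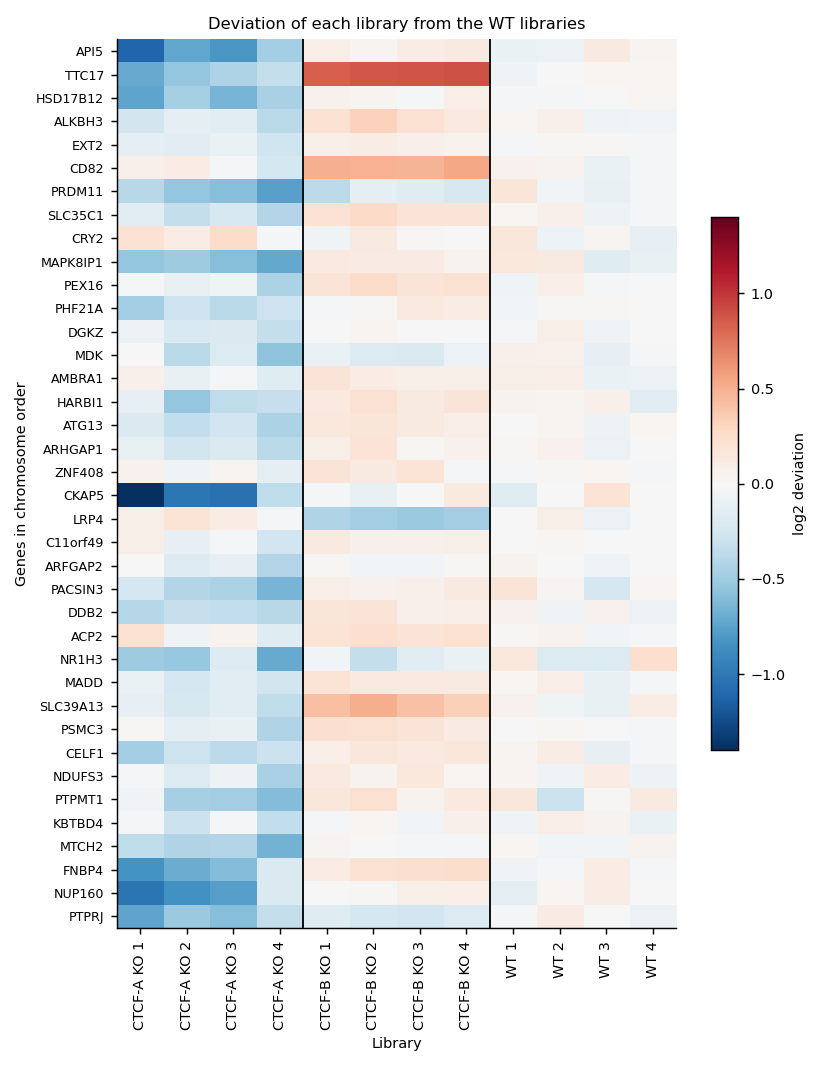
Log2 deviation of each library from the WT libraries for the 38 genes in chromosome order, with CTCF-A KO on the left, CTCF-B KO in the middle and WT on the right. Blue is lower and red is higher, and a WT library is set against the other 3. Blue fills most of the CTCF-A KO columns, and in CTCF-B KO the rows of TTC17, CD82 and SLC39A13 stand out in red and that of LRP4 in blue.

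Position within the stretch was described in consecutive blocks. The 12 genes from API5 to PHF21A had a median difference of -0.32 in CTCF-A KO with 9 lower, the 11 from DGKZ to ARFGAP2 had -0.21 with 7 lower, and the 15 from PACSIN3 to PTPRJ had -0.36 with 11 lower. With the trend described below removed, these medians were -0.32, -0.36 and -0.43, with 11, 10 and 15 lower. Each block thus held falls, and the order of the first pair of blocks turned. The 7 genes nearest MTCH2, from CELF1 to NUP160, had a median of -0.40 with 5 lower, and in CTCF-B KO a median of 0.09 with 1 higher. Over all genes tested 31.1% were called lower in CTCF-A KO, and 29.4% with the trend removed. In CTCF-B KO 18.9% of all genes were called higher. The pseudogene inside the stretch, AC024293.1, had log2 differences from WT of 0.26 for CTCF-A KO and 0.08 for CTCF-B KO.

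In CTCF-A KO the median differences of the neighbouring genes were closer to 0 than that of the stretch. The 16 tested genes in the 10 Mb before API5 had a median difference of -0.17 in CTCF-A KO, with 8 lower and 4 higher, and the 16 that follow PTPRJ had -0.03, with 6 lower and 4 higher. In the other 547 tested genes of chromosome 11 the median was -0.10, with 220 lower and 100 higher. In CTCF-B KO the medians were 0.08 before the stretch, -0.10 after it and -0.08 in the other genes of the chromosome. With the trend described below removed, the CTCF-A KO medians were -0.07 before the stretch, with 7 lower and 4 higher, -0.12 after it, with 8 lower and 2 higher, and -0.15 in the other genes, so the order of the flanks turned. Over all genes tested, 29.4% were then lower and 31.8% higher. No test of a difference between these sets of genes was made.

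Several of the genes overlap or start beside each other on opposite strands, and since the strand setting of the read counting is not given in the sources used here, their reads cannot be told apart where they overlap. HARBI1 and ATG13 share 383 bases and differed from WT by -0.33 and -0.31 in CTCF-A KO. CELF1 shares 140 bases with PTPMT1 and 234 with NDUFS3, whose annotated span covers those of PTPMT1 and KBTBD4 entirely. Their values differed more widely, at -0.36 for CELF1, -0.40 for PTPMT1, -0.18 for NDUFS3 and -0.17 for KBTBD4. ACP2 and NR1H3 share 607 bases and stood at 0.01 and -0.48. ARHGAP1 and ZNF408 start 203 bases apart and stood at -0.23 and -0.02. C11orf49 and ARFGAP2 share 87 bases at their ends.

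The 4 CTCF-A KO libraries did not deviate alike, and the pattern followed base composition. Over all genes, the tenth with the highest GC content stood above the tenth with the lowest, relative to WT, by 0.95, 0.45, 0.65 and 0.06 in CTCF-A KO replicates 1 to 4, with -0.12 to 0.02 in CTCF-B KO and -0.14 to 0.09 in WT. The transcripts of the 38 genes run from 41.8% GC in API5 to 65.0% in SLC35C1, with a median of 54.0%, against 50.1% for all genes. Replicate 4 was the highest CTCF-A KO library in 7 genes, API5, TTC17, HSD17B12, CKAP5, FNBP4, NUP160 and PTPRJ, whose median GC content was 43.7%. It was the lowest in 27 genes, with a median of 56.8%. Across the 38 genes, the difference of CTCF-A KO from WT had a Spearman coefficient of 0.43 with GC content, as a description over genes that share libraries, and that of CTCF-B KO had 0.03. The 10 genes of lowest GC content had median deviations of -0.73, -0.54, -0.52 and -0.33 in CTCF-A KO replicates 1 to 4, and the 10 of highest GC content had -0.10, -0.28, -0.19 and -0.43.

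**Figure D4:**
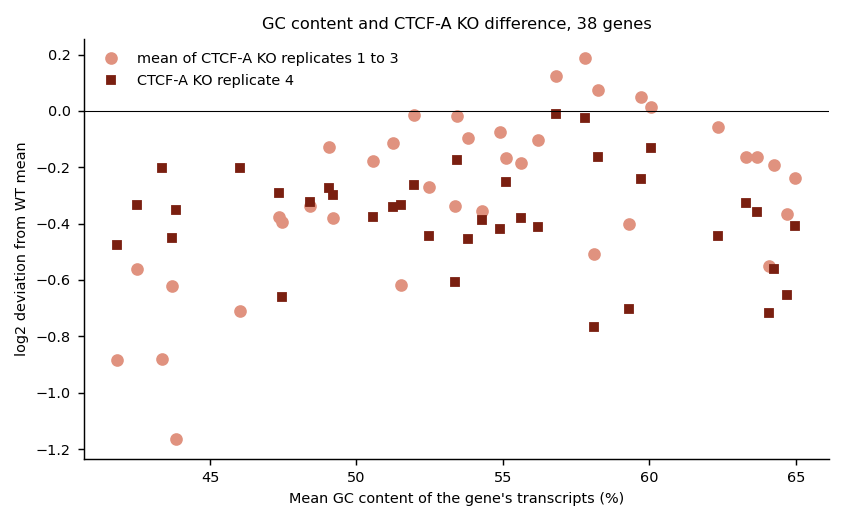
Log2 deviation from the WT mean of each of the 38 genes against the mean GC content of its transcripts in percent, for the mean of CTCF-A KO replicates 1 to 3 (light circles) and for CTCF-A KO replicate 4 (dark squares). At low GC content the circles lie well below the squares, and at high GC content the squares lie below the circles. All 38 squares lie under 0.

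The trend with GC content and transcript length was therefore estimated in each library over all genes and removed. In the deposited values the median deviation of the 38 genes was -0.13, -0.30, -0.20 and -0.35 in CTCF-A KO replicates 1 to 4, 0.10, 0.11, 0.08 and 0.09 in CTCF-B KO, and -0.03 to 0.03 in WT. With the trend removed it was -0.35, -0.38, -0.37 and -0.36 in CTCF-A KO libraries, and 0.12, 0.13, 0.10 and 0.11 in those of CTCF-B KO. These medians of the CTCF-A KO libraries then lay close to each other, well below those of WT. Single genes could still differ between the CTCF-A KO libraries. With the trend removed CKAP5 ran from 11.28 to 12.05 across them and MTCH2 from 10.73 to 11.12, while API5 ran from 10.57 to 10.78. In CTCF-A KO 36 genes were then called lower and 0 higher, all but CRY2 and LRP4, where 29.4% of all genes were lower and 31.8% higher, and the median of the 38 was -0.37. All 27 genes called lower in the deposited values were among them. The Spearman coefficient with GC content was -0.12. Of single genes, CKAP5 was then at -0.74, API5 at -0.52, TTC17 at -0.25, MAPK8IP1 at -0.75, PRDM11 at -0.73 and CD82 at -0.23, while MTCH2 stood at -0.39. In CTCF-A KO replicate 4, where the GC difference was smallest, all 38 genes were below the WT mean in the deposited values. Their median deviation was -0.35, against -0.0007 over all genes. As 1 library, it gives no spread of its own.

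**Figure D5:**
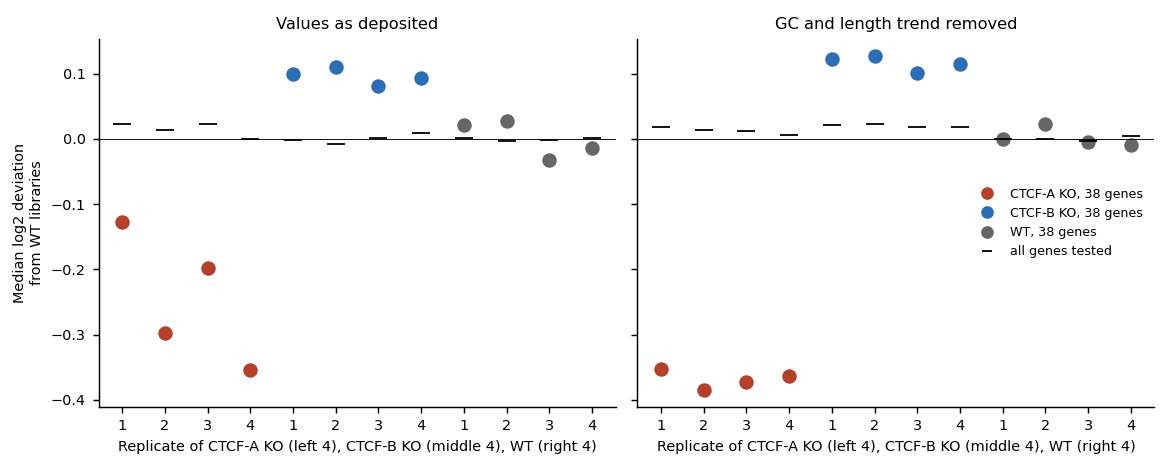
Median log2 deviation from WT of the 38 genes (circles) and of all genes tested (dashes) in each library of CTCF-A KO (left 4), CTCF-B KO (middle 4) and WT (right 4, each against the other 3), as deposited in the left panel and with the GC and length trend removed in the right. CTCF-A KO lies at -0.13 to -0.35 on the left and at -0.35 to -0.38 on the right, and CTCF-B KO lies at 0.08 to 0.13 over both panels.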

How the data were processed

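Total RNA from 12 libraries, 4 in each of CTCF-A KO, CTCF-B KO and WT, was analysed. The authors deposited normalized expression values on a log2 scale. Which transformation made them is not recorded, whole reads cannot be recovered, and depth is unknown, so no counting interval is given. Trimmomatic 0.33, featureCounts, DESeq2 and GRCh38.p7 are named per the submitters' processing notes, and the aligner, annotation, strand setting and gene filter are not given in the sources used here.

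Genes with a linear value of at least 10 in at least 4 libraries were kept, which removed 50 of 11178 and left 11128. One fit of the 3 group means used all 12 libraries together (limma 3.58.1, R 4.3.3, trended empirical Bayes variance, two-sided, Benjamini-Hochberg over all kept genes, called under 0.05). The trend with GC content and transcript length was fitted per library to its deviation from the WT mean with natural splines of 5 and 4 degrees of freedom and their product, and GC content was known for 99.7% of kept genes. The fits were tested on simulated data.

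Values per library are given for MTCH2 and for the called genes with the largest differences, 8 in CTCF-A KO, 4 in CTCF-B KO and 3 between the knockouts. The 38 genes, lists and tests were chosen with earlier results of these data known. Positions are from GENCODE release 29. Alternatives were other scalings and filters, a pseudocount, other variance models, a replicate block, removal of the trend, and omission of each library. For 45 of the 59 promoter windows the last bases were found in a GENCODE transcript of the same gene.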

Additional observations from a re-analysis of the deposited data

Results flagged for a closer look

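Of 114 sets of 4 libraries (38 genes in 3 groups), 4 held a library whose gap to the nearest other, divided by the range of the set, was above Dixon's critical value for 4 values. Chance flags about 1 set in 20. HARBI1 was at 6.55 in WT replicate 4 and at 6.69 to 6.72 in the other WT libraries. C11orf49 was at 10.14 in CTCF-B KO replicate 1 and at 10.08 to 10.09 in the other CTCF-B KO libraries, and in WT it was at 10.03 in replicate 2 with the other 3 at 10.00. FNBP4 was at 9.88 in WT replicate 3 and at 9.76 to 9.78 in the other WT libraries, and the CTCF-B KO libraries were still above it.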

How the results depend on the processing

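The median difference of the 38 genes kept its sign in every comparison under every alternative run. In CTCF-A KO the number of genes called against WT was 27 (62.9% of all genes tested), and 21 to 36 under the alternatives. The share of all genes was 62.7% in the setting with 21, and 61.2% and 61.3% in those with 36. Leaving out each library in turn gave 25 to 32 calls in CTCF-A KO, 6 to 17 in CTCF-B KO and 30 to 37 between the knockouts, with medians of -0.32 to -0.22, 0.09 to 0.10 and -0.42 to -0.38. The shares of all genes called in these fits were 55.6% to 73.8%, 33.0% to 52.3% and 60.5% to 75.7%, in the same order. In CTCF-B KO, 11 genes were called (39.4% of all genes tested), against 22 with only CTCF-B KO and WT fitted (59.3%), 23 with the GC and length trend removed (50.4%), and 23 with the trend removed and the replicate block (50.5%). Its median of 0.09 became 0.12 after quantile normalization. Between the knockouts the median of -0.39 became -0.51 with the trend removed, and -0.51 with the block added. ACP2 in CTCF-A KO, at 0.01 and not called, was -0.19 with the trend removed (adjusted p = 0.000159, limma) and -0.19 with the replicate block added (adjusted p = 0.000878, limma). It was -0.16 with CTCF-A KO replicate 4 alone, where 1 library gives no spread of its own. The cause was not tested beyond what these alternatives change.

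Replicate numbers did not pair the libraries. Correlations of deviations between libraries of the same number ran from -0.32 to 0.38 for CTCF-A KO with WT, -0.08 to 0.13 for CTCF-B KO with WT and -0.12 to 0.43 between the knockouts. With the replicate block, 29 genes were called in CTCF-A KO, 11 in CTCF-B KO and 35 between the knockouts, where 63.4%, 39.7% and 66.7% of all genes were.

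Precision is limited by 4 libraries a group and by unknown depth.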

Other observations

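Chosen after the values had been seen, all other tested genes of chromosome 11 were divided at the stretch. The 161 genes before API5 differed by a median of 0.05 in CTCF-A KO, with 52 lower and 56 higher, and of 0.09 in CTCF-B KO, with 12 lower and 51 higher. The 418 genes after PTPRJ differed by a median of -0.13 in CTCF-A KO, with 182 lower and 52 higher, and of -0.12 in CTCF-B KO, with 154 lower and 26 higher. In CTCF-B KO the 38 genes, with a median of 0.09, thus had the sign of the genes before them, and in CTCF-A KO, with -0.28, that of the genes after them. With the GC and length trend removed, the medians were 0.03 before and -0.19 after in CTCF-A KO, and 0.12 before and -0.10 after in CTCF-B KO. Over all genes tested, 31.1% were called lower and 31.8% higher in CTCF-A KO as deposited, and 20.6% and 18.9% in CTCF-B KO. The genes before API5 were near these shares in CTCF-A KO (32.3% and 34.8%). Those after PTPRJ were not, with 43.5% lower and 12.4% higher. With the trend removed they were 60.3% lower and 8.61% higher in CTCF-A KO, where 29.4% and 31.8% of all genes were. In CTCF-B KO as deposited, 7.45% were lower and 31.7% higher before API5, and 36.8% and 6.22% after PTPRJ.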
